A study of Caenorhabditis elegans with 6 samples.

Results

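Sex determination genes of the nematode Caenorhabditis elegans were compared between an ung-1 mutant and the wild type strain N2. The set was chosen by gene symbol, as the probe sets that name 1 gene and whose gene is her-1, tra-1, tra-2, tra-3, fem-1, fem-2, fem-3, fog-1, fog-2 or fog-3. All 10 genes were found, on 17 probe sets, among 17118 genes named on the array. The mutant is described as deficient in ung-1, the gene of uracil-DNA glycosylase, the enzyme that starts the removal of uracil from DNA. Total RNA was measured on Affymetrix whole-genome arrays of the worm, 3 for the ung-1 mutant and 3 for N2, and the titles call the replicates biological. The labels name a mutant where the design text speaks of RNAi mutants. They give no allele, developmental stage, age, share of males or treatment.

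In C. elegans, animals with XX chromosomes are hermaphrodites, which are females in body that first make sperm and then oocytes, and XO animals are males. A chain of negative steps carries the decision: the secreted protein HER-1 blocks the membrane receptor TRA-2, free TRA-2 holds back the FEM proteins, and the FEM proteins send the transcription factor TRA-1 to degradation. TRA-1 turns off male genes in the body. In the germ line, FOG-2 with GLD-1 lowers the translation of tra-2, while FOG-1 and FOG-3 act at the end of the chain to make germ cells into sperm. Much of this control acts on translation and protein stability, which RNA arrays do not measure.

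Each value is the intensity of a probe set in arbitrary units, which can be set against the same probe set on another array but not against another probe set. Differences are log2 fold changes of the mutant over N2, computed after an offset of 16 was added to each intensity, and carry the standard error and 95% confidence interval of the limma fit. Means stand with their SD over the 3 arrays of a genotype. An exact two-sided permutation test of 3 against 3 arrays cannot go below 0.1. The ung-1 probe set itself gave 54.87, 55.33 and 47.67 in the mutant, against 235.93, 254.14 and 295.57 in N2, so the labels and the targeted transcript went the same way on all 6 arrays.

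Array medians ran from 152.82 to 160.985 in the mutant and from 158.315 to 167.85 in N2. Mutant replicate 3 stood apart in genes of the germ line and of reproduction. Its median over 19 probe sets of 16 germline marker genes lay 0.65 below the mean of the 6 arrays on the log2 scale, where the other 5 arrays ran from -0.090 to 0.32. For 33 oocyte probe sets its median was -0.55, and for 8 yolk probe sets -1.67. The 24 major sperm protein probe sets were low on mutant replicate 3 (-0.89) and on N2 replicate 1 (-0.81) and lay from 0.19 to 0.68 on the other 4 arrays. In whole animals, fewer cells of a type and less RNA per cell cannot be told apart.

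No sex determination gene passed the threshold of an adjusted p of 0.05 in limma. Over the whole array 0.0% of the 22548 probe sets passed it. The smallest adjusted p in limma was 0.0765, that of the targeted gene ung-1 (log2 fold change -2.01). The threshold thus did not call ung-1 either, and missing it does not show that a gene is unchanged. Of the 17 probe sets, 9 had a positive and 8 a negative log2 fold change. This balance moved with the arrays and probe sets used: 6 were positive and 11 negative without mutant replicate 1, and 12 positive and 5 negative without mutant replicate 3. Among the 11 probe sets whose identifiers do not mark them as able to match several transcripts, 3 were positive and 8 negative. Their median was 0.0019, and that of all probe sets was -0.027. The fold changes ran from -0.43 to 0.33, and the limma adjusted p was 0.9995 to 0.9996 for all 17. The unadjusted limma p was under 0.05 for 1 of the 17, a fem-1 probe set (5.88%, against 1.93% of all probe sets, 435 of them). It was lower in the mutant, as were 1.24% of all probe sets at that p, and 0 of the 17 were higher, against 0.687% of all. An ordinary equal-variance test gave 2 of the 17, against 2.51% of all probe sets (565). The 3 mutant arrays lay apart from the 3 N2 arrays on 3 of the 17 probe sets (17.6%, against 6.69% of all), 1 higher and 2 lower in the mutant. With so few probe sets, these shares do not set the genes apart from the rest of the array.

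**Figure D1:**
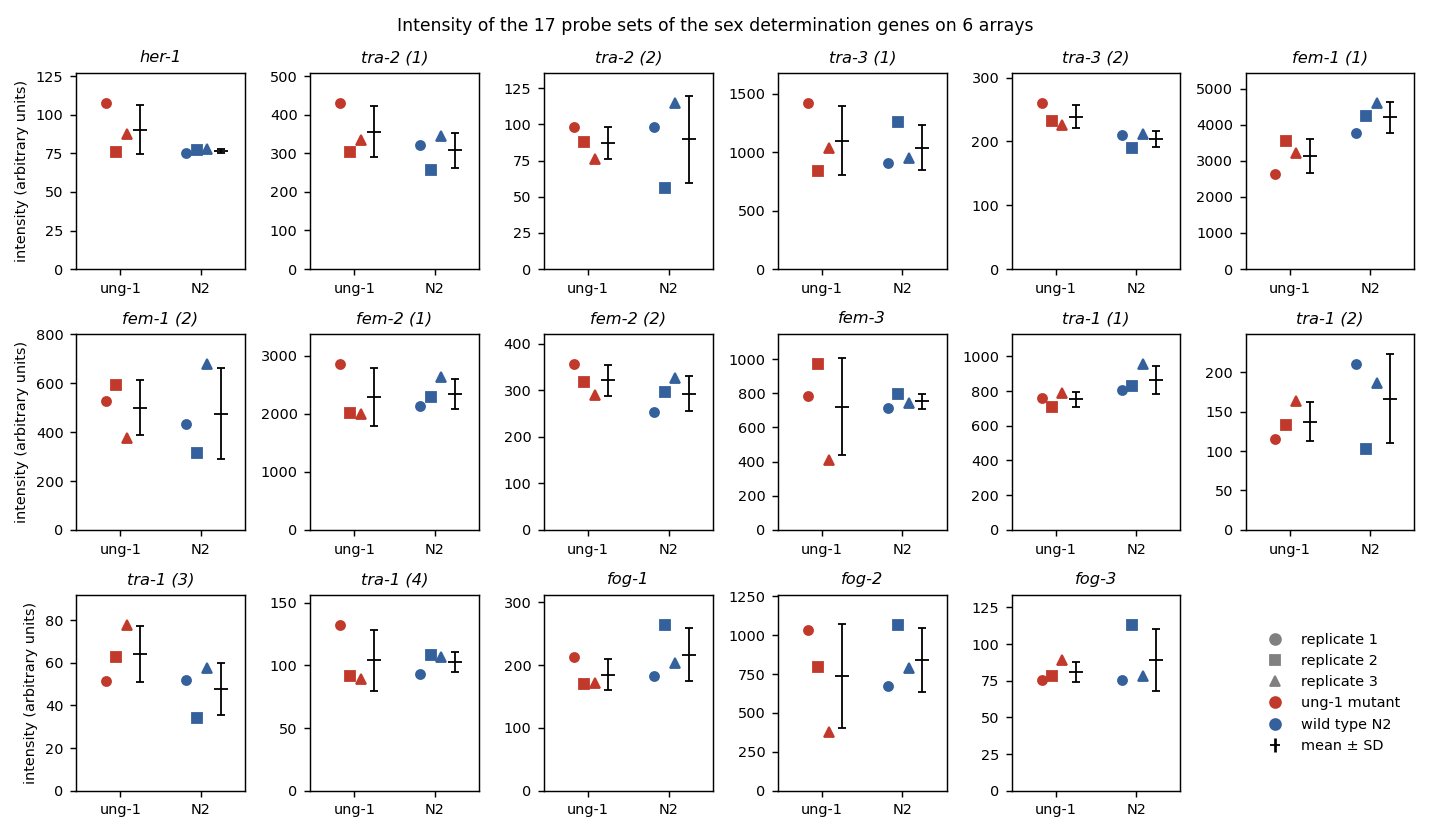
Intensity in arbitrary units (linear axis from 0) of each of the 17 probe sets, with 3 ung-1 mutant arrays in red and 3 N2 arrays in blue, and bars for mean ± SD. Numbers in brackets number the probe sets of 1 gene by their identifiers, lowest first. The genotypes do not overlap for the second tra-3, the first fem-1 and the first tra-1 probe set, and mutant replicate 3 (red triangle) is lowest for fem-3 and fog-2.

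The ligand gene her-1, whose protein starts male development, is known to be made mainly in XO animals. Its probe set 191422_at gave 107.68, 76.13 and 87.75 in the mutant, against 75.22, 77.25 and 77.86 in N2. The N2 arrays were close together, and mutant replicate 2 lay among them while mutant replicates 1 and 3 lay above. The means were 90.5 ± 15.96 in the mutant and 76.8 ± 1.38 in N2, with a log2 fold change of 0.19 (SE 0.16, interval -0.19 to 0.56). Without mutant replicate 1 it was 0.076.

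The receptor gene tra-2 was read by a pair of probe sets, both of a kind that can match several transcripts. Probe set 173449_s_at gave 429.94, 304.38 and 333.73 in the mutant, against 321.21, 257.02 and 345.56 in N2. The highest array was mutant replicate 1 and the lowest N2 replicate 2, with the others intermixed, and the log2 fold change was 0.20 (SE 0.19, interval -0.26 to 0.65). Probe set 188199_s_at gave 98.42, 87.46 and 76.23 in the mutant, against 97.96, 56.12 and 114.69 in N2, so that all mutant arrays fell inside the range of N2. Its log2 fold change was 0.0079 (SE 0.24, interval -0.57 to 0.59), and it is in the dimmest part of the array.

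The gene tra-3 encodes a calpain protease that cleaves TRA-2 and so favours female development. Its probe set 190890_s_at gave 259.96, 231.44 and 225 in the mutant, against 209.78, 189.12 and 211.46 in N2. All mutant arrays were above all N2 arrays, as in 2.31% of probe sets on the whole array. Means were 239 ± 18.6 in the mutant and 204 ± 12.4 in N2, with a log2 fold change of 0.21 (SE 0.14, interval -0.12 to 0.55, exact permutation p = 0.1), which did not pass limma's test (unadjusted p = 0.169, adjusted p = 0.9995). It lay between 0.16 and 0.25 with any 1 array left out. The other tra-3 probe set, 173915_at, gave 1418.04, 836.96 and 1034.92 in the mutant, against 901.87, 1255.14 and 952.31 in N2. Here the lowest and the highest array were both mutant arrays, and the log2 fold change was 0.062 (SE 0.24).

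FEM-1, an ankyrin repeat protein, FEM-2, a protein phosphatase, and FEM-3 work together with the ubiquitin ligase of CUL-2 against TRA-1. The largest difference among the 17 probe sets was that of fem-1 on 173802_at, which gave 2642.45, 3556.96 and 3213.5 in the mutant, against 3764.46, 4258.63 and 4604.41 in N2. All mutant arrays lay below all N2 arrays, as in 4.38% of probe sets on the whole array. Mutant arrays averaged 3138 ± 462 and N2 arrays 4209 ± 422, a ratio of 0.745 of mutant over N2. The log2 fold change was -0.43 (SE 0.17, interval -0.83 to -0.022), with an unadjusted p of 0.0416 and an adjusted p of 0.9995 in limma and an exact permutation p of 0.1. The direction held with each array left out in turn, between -0.52 and -0.31, but the unadjusted p was above 0.05 without mutant replicate 1 (0.119), mutant replicate 3 (0.0641), N2 replicate 2 (0.0828) or N2 replicate 3 (0.126).

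The second fem-1 probe set differed in sign from the first. Probe set 176622_s_at, of a kind that can match several transcripts, gave 528.15, 595.11 and 377.67 in the mutant, against 433, 313.6 and 679.19 in N2. The mutant arrays fell inside the N2 range, with a log2 fold change of 0.12 (SE 0.31, interval -0.61 to 0.84). Within arrays, the log2 ratio of the first to the second fem-1 probe set differed by -0.54 (mutant minus N2), and the arrays overlapped (exact permutation p = 0.2). Over the 10 pairs of probe sets that read the same member gene, the adjusted p of this ratio was 0.5, where no pair could go below 0.1.

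For fem-2, probe set 174772_at gave 2860.27, 2011.49 and 1989.69 in the mutant, against 2127.8, 2285.31 and 2627.49 in N2. Mutant replicate 1 was the highest array and the other mutant arrays were the lowest, with a log2 fold change of -0.052 (SE 0.19, interval -0.51 to 0.41). Probe set 188540_at gave 356.52, 318.06 and 289.2 in the mutant, against 252.58, 296.81 and 327.15 in N2, again with overlap, and had 0.13 (SE 0.16, interval -0.25 to 0.52).

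FEM-3 is the protein that TRA-2 holds, and the fem-3 message is repressed in the germ line when hermaphrodites turn to making oocytes. Its probe set 193456_at gave 784.82, 971.49 and 409.94 in the mutant, against 713.81, 797.24 and 745.27 in N2. The N2 arrays lay inside the mutant range, whose highest array was replicate 2 and whose lowest was replicate 3. Mutant arrays averaged 722 ± 286 and N2 arrays 752 ± 42.1, with a log2 fold change of -0.14 (SE 0.31, interval -0.87 to 0.59). Without mutant replicate 3 the sign turned, to 0.21. On that array fem-3 lay 0.78 below its own mean of the 6 arrays, beside the germline marker median of -0.65 there. The part of germline content in this value was not tested.

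**Figure D2:**
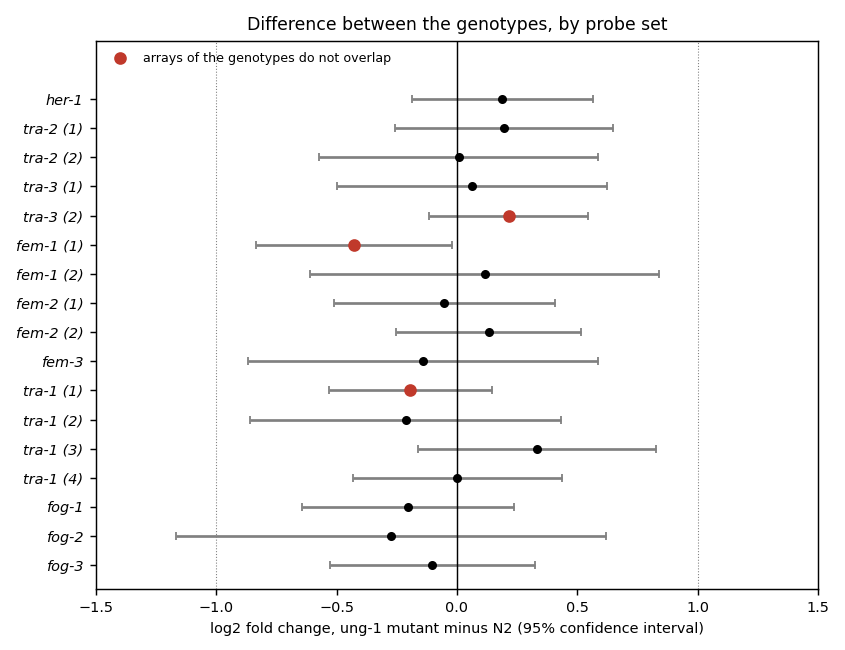
Log2 fold change of the ung-1 mutant against N2 (x axis) for each probe set (rows), with the 95% confidence interval from limma as bars. Red points mark the 3 probe sets whose arrays do not overlap, and dotted lines mark a 2-fold change either way. The interval of the first fem-1 probe set ends at -0.022, and the intervals of the other 16 probe sets include 0.

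TRA-1, a zinc finger protein of the Gli family, is the last step of the chain in the body, and 4 probe sets read its gene. Probe set 175621_at gave 761.32, 707.41 and 790.6 in the mutant, against 808.59, 829.67 and 956.06 in N2. All mutant arrays were below all N2 arrays, although the nearest arrays of the genotypes, at 790.6 and 808.59, were close. The log2 fold change was -0.19 (SE 0.14, interval -0.53 to 0.15), with an unadjusted p of 0.2198 and an adjusted p of 0.9995 in limma and an exact permutation p of 0.1. It kept its sign with any 1 array left out, between -0.24 and -0.12.

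The other tra-1 probe sets went both ways. Probe set 175693_at gave 114.99, 132.74 and 163.67 in the mutant, against 210.45, 102.8 and 186.64 in N2. N2 replicate 2 was the lowest array and the other N2 arrays the highest, and the log2 fold change was -0.21 (SE 0.27, interval -0.86 to 0.43). Without N2 replicate 2 it was -0.50. Probe set 175694_s_at gave 51.56, 62.61 and 77.74 in the mutant, against 51.71, 34.04 and 57.38 in N2, with 0.33 (SE 0.21, interval -0.16 to 0.83). Here mutant replicates 2 and 3 lay above all N2 arrays. Probe set 188843_s_at gave 132.26, 91.19 and 88.83 in the mutant, against 93.14, 108.38 and 106.23 in N2, with 0.0019 (SE 0.18), and the N2 arrays lay inside the mutant range.

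The platform annotation gives 175693_at and 175694_s_at the same source sequence accession. Their log2 ratio within an array, set to a mean of 0 over the 6 arrays, was -0.26, -0.29 and -0.27 in the mutant, against 0.53, 0.036 and 0.25 in N2. The mutant minus N2 difference of this ratio was -0.55, with the arrays apart (exact permutation p = 0.1, adjusted p = 0.5 over 10 pairs). No pair could go below 0.1 in this test, before or after the adjustment, so it cannot decide whether the ratio differs. The ratio of 175621_at to 175694_s_at was also apart, at -0.53 (exact permutation p = 0.1, adjusted p = 0.5), and the other 8 pairs overlapped. Both pairs that lay apart hold 175694_s_at, which is in the dimmest part of the array, so they are not separate observations. The share of such pairs over the whole array was not computed. Of the 5 genes with more than 1 probe set, 3 had probe sets of both signs (tra-1, fem-1 and fem-2).

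The fog genes act in the germ line. FOG-2, an F-box protein needed for sperm in hermaphrodites but not in males, is read by 184776_at, which gave 1035.15, 798.23 and 377.91 in the mutant, against 670.5, 1066.7 and 785.99 in N2. Mutant replicate 3 was the lowest array, while mutant replicate 1 and N2 replicate 2 were the highest. Mutant arrays averaged 737 ± 333 and N2 arrays 841 ± 204. This gave a log2 fold change of -0.27 (SE 0.38, interval -1.17 to 0.62), the widest interval of the 17 probe sets and the only one to reach a 2-fold change on this scale. Without mutant replicate 3 the sign turned, to 0.14, and without N2 replicate 2 the value was -0.092.

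The neighbouring gene ftr-1 is the close copy of fog-2 next to it in the genome, and similar sequence could let the probes of each read the other. Its probe set 184837_at gave 772.91, 739.38 and 459.39 in the mutant, against 643.65, 967.06 and 748.96 in N2, with a log2 fold change of -0.27 (SE 0.25, interval -0.87 to 0.33). As with fog-2, the lowest array was mutant replicate 3 and N2 replicate 1 came next. For gld-1, whose RNA-binding protein works with FOG-2 on tra-2, probe set 174247_at gave 2777.98, 2223.1 and 1147.39 in the mutant, against 2083.62, 1541.13 and 2793.66 in N2 (log2 fold change -0.11, SE 0.37). It was likewise lowest on mutant replicate 3. The other gld-1 probe set, 193805_at, gave 163.57, 132.98 and 122.19 in the mutant, against 129.19, 113.44 and 148.88 in N2, a log2 fold change of 0.085 (SE 0.17).

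FOG-1, a cytoplasmic polyadenylation element binding protein, was read by 177117_at, which gave 213.43, 169.68 and 170.87 in the mutant, against 182.42, 263.94 and 203.35 in N2. Mutant replicates 2 and 3 were the lowest arrays and N2 replicate 2 the highest. This probe set had a log2 fold change of -0.20 (SE 0.19, interval -0.65 to 0.24), and -0.063 without N2 replicate 2. FOG-3, of the Tob family, was read by 187972_at, which gave 75.86, 78.21 and 88.84 in the mutant, against 75.83, 113.14 and 78.52 in N2. All arrays but N2 replicate 2 lay between 75.83 and 88.84. The log2 fold change was -0.10 (SE 0.18, interval -0.53 to 0.33), and 0.055 without N2 replicate 2. This fog-3 probe set is in the dimmest part of the array, where an overlap says little about expression.

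**Figure D3:**
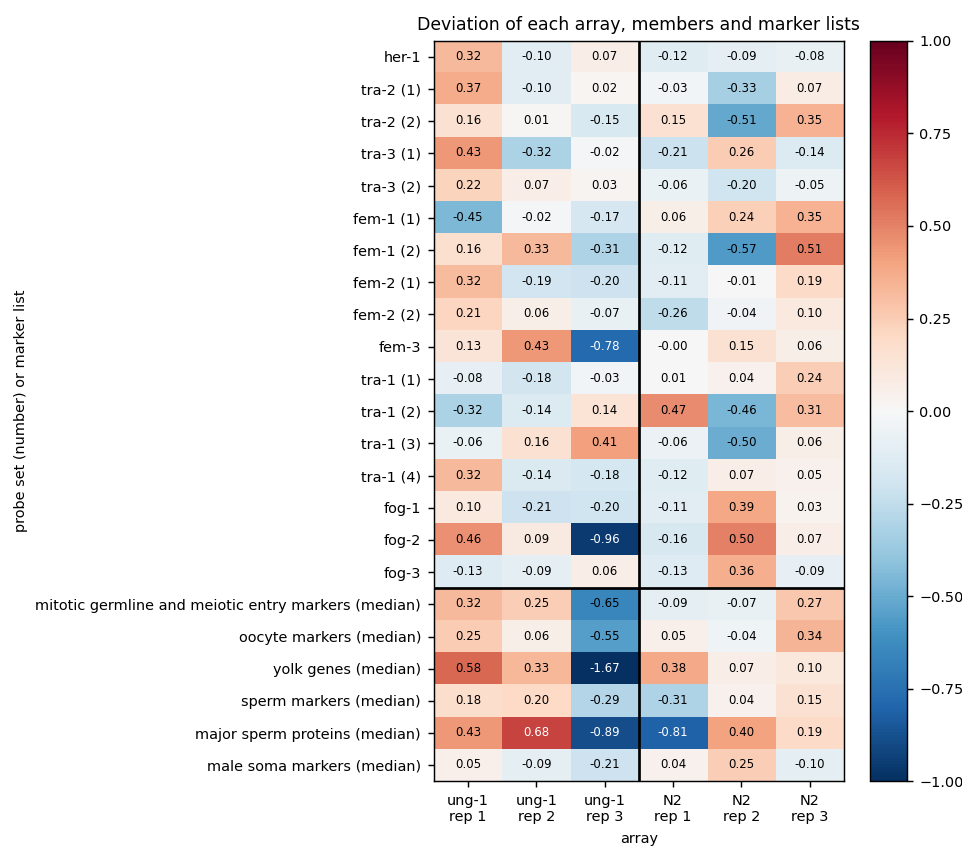
Log2 deviation of each array (columns, ung-1 mutant left of N2) from the mean of the 6 arrays, for the 17 probe sets (upper rows) and for the median of 6 marker lists (lower rows). Red is higher and blue lower, with the colour ending at 1 either way and the values printed. On mutant replicate 3, fog-2 (-0.96) and fem-3 (-0.78) are low beside the germline, oocyte, yolk and major sperm protein lists.

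On mutant replicate 3 the members deviated unevenly from their 6-array means. There fog-2 deviated by -0.96 on the log2 scale, fem-3 by -0.78, and the next lowest member, the second fem-1 probe set, by -0.31. The sperm fate genes fog-1 and fog-3 deviated by -0.20 and 0.064, although 23 probe sets of sperm genes had a median of -0.29. The summed intensity of the germline markers was 13390 to 27370 in the mutant and 20230 to 27080 in N2, with 0 of 19 probe sets past an unadjusted p of 0.05. For oocyte markers the sum was 97580 to 149600 in the mutant and 131300 to 167200 in N2, with 0 of 33 probe sets higher and 2 lower at that p (0.687% and 1.24% of all probe sets). For sperm markers it was 4143 to 7474 in the mutant and 4074 to 6311 in N2 (1 of 23 higher and 0 lower). For major sperm proteins it was 25220 to 75820 in the mutant and 26950 to 62350 in N2 (0 of 24). The groups overlapped in each of these sums. By sign of the log2 fold change, 24 major sperm protein probe sets were positive and 0 negative, and 18 sperm marker probe sets were positive and 5 negative. For oocyte markers 6 were positive and 27 negative, and for germline markers 7 and 12, where 44.47% of all probe sets were positive. These signs, and the part of cell content in the values of the members, were not tested.

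**Figure D4:**
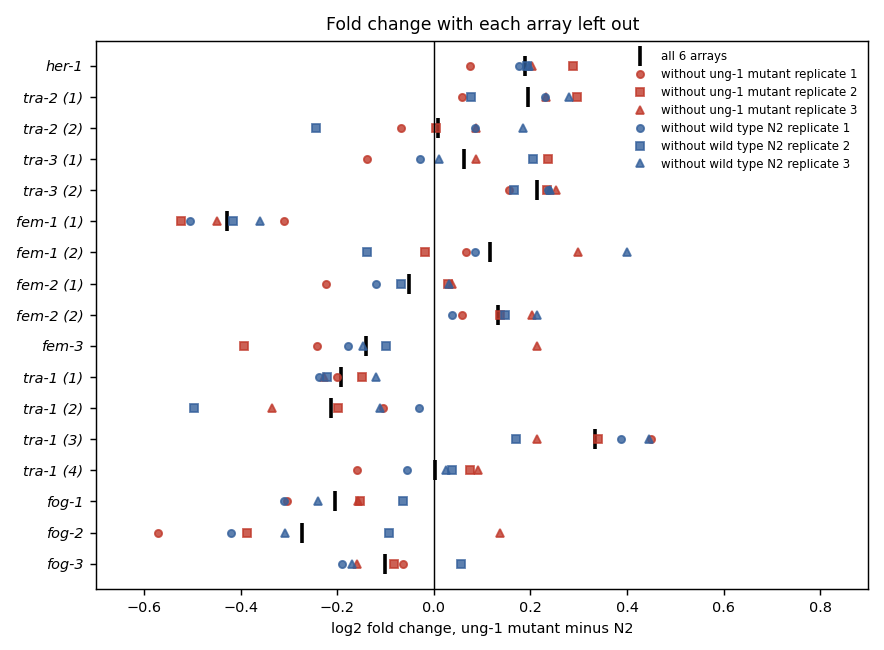
Log2 fold change of the ung-1 mutant against N2 (x axis) for each probe set (rows) with all 6 arrays (black bar) and with each mutant array (red) or N2 array (blue) left out. Without mutant replicate 3 (red triangles), fem-3 lies at 0.21 and fog-2 at 0.14, on the other side of 0 from their values with all arrays.

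By role, the 7 genes that promote male or sperm fate (her-1, the fem genes and the fog genes) had 3 positive and 6 negative probe sets, with a median log2 fold change of -0.10. The 3 tra genes, which promote female fate, had 6 positive and 2 negative probe sets, with a median of 0.035. Neither direction holds for every gene of its group, since her-1 was positive and the first tra-1 probe set negative. These medians were not tested. The 6 probe sets of a kind that can match several transcripts were all positive, and all but that of fem-1 read tra genes. The other tra probe sets had 0.062 (tra-3 173915_at), -0.19 (tra-1 175621_at) and -0.21 (tra-1 175693_at). The standard errors of the single probe sets ran from 0.14 to 0.38. On the scale with an offset of 16, which shrinks the changes of dim probe sets, the confidence intervals of 16 of the 17 probe sets lay within a 2-fold change either way. With an offset of 1 this held for 15, as the interval of the dim tra-1 probe set 175694_s_at also passed 2-fold, and with the ordinary test for 13.

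No gene that acts above, beside or below the members passed an adjusted p of 0.05 in limma, in any of the 4 lists that follow. The X signal list holds genes that read the number of X chromosomes, the switch gene xol-1 and the sdc genes. It had 0 of 18 probe sets past an unadjusted p of 0.05 (9 genes, median log2 fold change -0.012). Its lowest p belonged to probe set 193642_at of sdc-1, a gene of the complex that represses her-1 in hermaphrodites, whose mutant arrays averaged 223 ± 39.1 and N2 arrays 258 ± 10.3, a log2 fold change of -0.21 (SE 0.16), while the other sdc-1 probe set had 0.031. The nuclear receptor gene sex-1 had 0.26 (SE 0.23) on 188033_s_at, and 0.20 and -0.067 on its other probe sets. The switch gene xol-1 had -0.19 (SE 0.19) on 188135_s_at and -0.16 on the other. The homeobox gene ceh-39 had -0.27 (SE 0.32) on 175419_at, and 0.049 and 0.11 on the others.

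Among 37 probe sets of 22 genes that control tra-2 and fem-3 messages in the germ line, 0 were higher and 1 lower at an unadjusted p under 0.05 (0.687% and 1.24% of all probe sets), with a median log2 fold change of -0.039. The lower one was 174893_at, a probe set of gld-2, a cytoplasmic poly(A) polymerase gene, at 443.65, 469.3 and 361.83 in the mutant, against 656.92, 813.19 and 679.18 in N2. Its arrays were apart, with a log2 fold change of -0.73 (SE 0.17), an unadjusted p of 0.00338 and an adjusted p of 0.9995 in limma. The other 4 gld-2 probe sets went both ways, at 0.26, 0.074, -0.15 and -0.22, so that the gene's probe sets do not share 1 direction. The zinc finger gene mep-1, whose protein binds the MOG proteins that repress fem-3, had 0.51 (SE 0.23) on 191958_at. Its other probe set had -0.12 (SE 0.13), with all mutant arrays below all N2 arrays. The helicase gene mog-5 had 0.24 (SE 0.15). The DEAD-box helicase gene laf-1, which lowers tra-2 translation, had -0.21 (SE 0.15) on 176665_s_at, at 28.8 ± 1.49 in the mutant and 36.0 ± 5.62 in N2, and -0.15 and -0.13 on its other probe sets.

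In the 14 probe sets of 9 genes that turn over or assist the FEM and TRA proteins, 1 was higher and 0 lower at that p (0.687% and 1.24% of all probe sets), with a median log2 fold change of 0.085. The higher one was 188262_s_at of rpn-10, a ubiquitin receptor gene of the proteasome. It gave 612.84, 568.45 and 639.46 in the mutant, against 384.63, 413.43 and 557.5 in N2 (0.43, SE 0.18, unadjusted p = 0.0481, adjusted p = 0.9995 in limma). The other rpn-10 probe set had 0.20 (SE 0.17). The histone deacetylase gene hda-1, a partner of TRA-4, had 0.31 (SE 0.16) on 192776_at and 0.048 on the other. The gene of CUL-2, the scaffold of the ligase that FEM-1 joins, had 0.32 (SE 0.20) on 192809_s_at and -0.012 on the other. The gene sel-10, an F-box gene of another ligase, had -0.21 (SE 0.16) on 175651_at and 0.055 on the other.

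Arrays of both genotypes overlapped for all body targets of TRA-1, with 0 of 4 probe sets past an unadjusted p of 0.05 and a median log2 fold change of -0.065. The male differentiation gene mab-3, which TRA-1 represses and which represses yolk genes in males, gave 63.45, 44.12 and 53.53 in the mutant, against 73.16, 79.39 and 53.86 in N2 (-0.28, SE 0.19, interval -0.72 to 0.16). Mutant replicate 1 lay among the N2 arrays. Values were -0.078 (SE 0.15) for dmd-3, a gene of male tail development, -0.052 (SE 0.17) for ceh-30, which keeps male neurons alive, and 0.043 (SE 0.18) for the cell death gene egl-1. The probe sets of mab-3, dmd-3 and egl-1 were in the dimmest part of the array, where an overlap says little about expression. Among 11 probe sets of genes of the male body, mostly male neurons, 0 were higher and 1 lower at that p (0.687% and 1.24% of all probe sets). The lower one, the ion channel gene asic-2, gave 94.07, 120.02 and 81 in the mutant, against 198.12, 263.64 and 117.8 in N2, with overlap. Most of the 11 probe sets, though not that of asic-2, were in the dimmest part of the array as well.

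**Figure D5:**
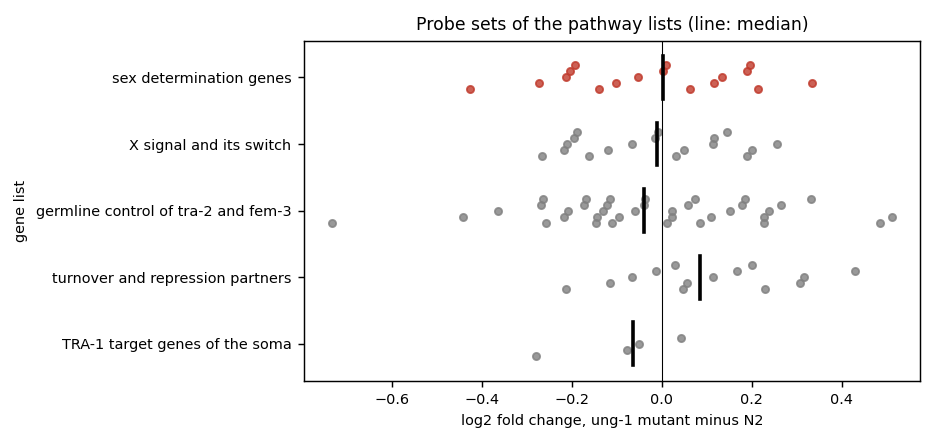
Log2 fold change of the ung-1 mutant against N2 (x axis) for each probe set (points) of the sex determination genes (red) and of 4 lists of pathway genes (grey), with the median of each list as a black line. The medians lie between -0.065 and 0.085, and 1 of the 5 gld-2 probe sets is the lowest point, at -0.73.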

How the data were processed

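The authors deposited linear intensity values, 1 for each probe set on each array. The sources used here do not say how probes were summarised or whether arrays were scaled to each other. RNA was extracted with Trizol and labelled with biotin, per the labels' protocols. Of all values, 1361 (1.003%) are whole numbers that equal spreadsheet dates and were read back as the small numbers they stand for (1.17 to 31.12). None of the 17 probe sets of the members held one.

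Genes were named from the platform annotation, and a check of gene identifiers against the RefSeq table of WBcel235 changed 0 symbols. The 77 control probe sets were left out. The remaining 22548 were tested as log2(intensity + 16), where the offset understates changes of dim probe sets, with limma 3.58.1 under R 4.3.3 (two-sided, lmFit followed by eBayes) and Benjamini-Hochberg adjustment over all of them. No normalization or filter was added. With no filter, all 17 probe sets entered, 4 of them in the dimmest part left out in an alternative. Exact permutation tests used all 20 regroupings. The fit was tested on simulated data. Tables and figures used Python 3.11.15, pandas 2.3.3 and matplotlib 3.10.9.

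The members and lists were chosen with earlier results of these data known. All members are named. The genes ftr-1, gld-1 and mab-3 are named whatever their values, and up to 4 genes of each pathway list by smallest unadjusted p. In marker lists, yolk genes included, genes are named from the same ranking where the text describes them. Alternatives were other offsets, normalizations, variance models, treatments of date cells, probe set filters and left-out arrays. The number of arrays limits the precision.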

Additional observations from a re-analysis of the deposited data

How the results depend on the processing

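No member probe set passed the adjusted threshold under any alternative, with adjusted p from 0.6694 upwards. Of 313 alternative values of single probe sets, 291 kept their sign and 22 changed it, in 8 probe sets whose main values lie within 0.28 of 0. The cause of these changes was not tested. The count of members at an unadjusted p under 0.05 was 1 with all arrays and 0 with an offset of 1, median centring, without the dimmest probe sets (13 left), with an intensity trend, with array weights or with both mutant replicate 3 and N2 replicate 1 left out, the last chosen after seeing the data. It was 2 with the ordinary test, and 0 to 1 with 1 array left out, where the 1 without N2 replicate 2 was a tra-1 probe set and not fem-1. Over all probe sets the count was 435, and 193 without the dimmest probe sets, 1554 with array weights and 232 to 894 with 1 array left out. The median log2 fold change of the members was 0.0019, and -0.11 to 0.091 with 1 array left out. It was -0.14 over the 11 probe sets whose identifiers do not mark them as able to match several transcripts.

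Signs turned with array weights for tra-2 188199_s_at (-0.12), fem-3 (0.14), fog-2 (0.054) and fog-3 (0.0002), with an offset of 50 for tra-2 188199_s_at (-0.0020) and with an offset of 1 for tra-1 188843_s_at (-0.0002). With both mutant replicate 3 and N2 replicate 1 left out, tra-3 173915_at had -0.0045 and fem-3 0.18. With 1 array left out, values ran from -0.25 to 0.18 for tra-2 188199_s_at, -0.14 to 0.24 for tra-3 173915_at, -0.14 to 0.40 for fem-1 176622_s_at and -0.22 to 0.037 for fem-2 174772_at. They ran from -0.39 to 0.21 for fem-3, -0.16 to 0.091 for tra-1 188843_s_at, -0.57 to 0.14 for fog-2 and -0.19 to 0.055 for fog-3. With the replicate number as a block, 0 members and 323 of all probe sets had an unadjusted p under 0.05. Deviations of same-numbered arrays from their group means correlated at -0.187, 0.0899 and 0.104, and those of differently numbered arrays at -0.209 to 0.114. These values cannot decide whether same-numbered arrays were handled together, and the labels give only the replicate number. Where a probe set lies above background is unknown, since no detection calls were used.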

Other observations

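The yolk genes, which the hermaphrodite intestine expresses to feed oocytes, had 0 of 8 probe sets at an unadjusted limma p under 0.05, as against 1.93% of all probe sets. They were uneven on mutant replicate 3. There vit-5 gave 3608.73, against 20888.97 and 21697.88 on the other mutant arrays and 17868.44 to 21109.32 in N2. On the probe set of vit-4 with the smallest p, the value was 3203.56 there, against 18639.09 and 22251.1 on the other mutant arrays and 16477.13 to 21055.91 in N2. The gene vit-2 gave 8216.07 there, against 9846.02 and 12533.11 on the other mutant arrays and 9497.35 to 12177.16 in N2. The probe sets given for vit-4 (172134_x_at) and vit-5 are of a kind that can match several transcripts.

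The sperm fate genes fog-1, fog-2 and fog-3 all had their highest value on N2 replicate 2, with log2 deviations of 0.39, 0.50 and 0.36 from the 6-array mean, and were the only members to do so. The same array held the lowest value of 6 other member probe sets, those of tra-2 (both), the second of tra-3 and of fem-1, and tra-1 175693_at and 175694_s_at. All of these but tra-1 175693_at are of a kind that can match several transcripts. Over the whole array, 31.15% of probe sets had their highest and 16.96% their lowest value on N2 replicate 2. Mutant replicate 1 held the highest value of 7 of the 17 member probe sets, against 19.1% of all probe sets. These patterns were noticed in the data and not tested.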
